A study of Mus musculus with 2 samples.

Results

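The heat shock chaperones of the cytosol and mitochondria are described here in mouse liver, as 36 genes listed by symbol and matched to the Ensembl identifiers of the deposited tables, out of 52636 Ensembl genes listed there. All 36 were found. The set holds the HSP70 and HSP110 families, J proteins, HSP90, small heat shock proteins, cochaperones, mitochondrial chaperones, subunits of the TRiC ring and the transcription factors Hsf1 and Hsf2. The livers came from 2 groups of C57BL/6 mice aged 9 weeks, Gbp5 knockout (KO, GBP5-/-) and wild type (WT), and both groups had received 800 µg D-galactosamine (GalN) and 100 ng lipopolysaccharide (LPS) per g body weight 6 h before. RNA of 4 livers was pooled per genotype and sequenced as 1 library, so neither group has replicates, no p-value can be given, and all intervals are exact 95% intervals of counting error alone. How the Gbp5 allele was made is not given in the sources used here, and no library without GalN/LPS was analysed here.

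Chaperones bind unfolded stretches of other proteins and keep them from aggregating. HSP70 proteins work in cycles with J proteins, which bring the client and start ATP hydrolysis, and with nucleotide exchange factors such as HSP110 and BAG proteins, while HSP90 takes over partly folded clients such as kinases and steroid receptors. Some chaperone genes are expressed in every cell at all times, and others are switched on by stress when HSF1, normally held inactive in complexes with chaperones, binds heat shock elements in their promoters. LPS is a bacterial endotoxin, and GalN traps uridine nucleotides in hepatocytes, which limits their RNA synthesis and makes the liver sensitive to endotoxin.

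Reads in genes numbered 15750875 for KO and 19864848 for WT, so that the floor of 3 reads was 0.190 CPM (reads of a gene scaled to the library total) in KO and 0.151 CPM in WT. Gbp5 itself had 55.4 CPM in KO and 162 CPM in WT, 2.92-fold lower in KO (2.71 to 3.15) with a corrected log2 value of -1.52, so its reads went the way of the labels but did not vanish. Over 14062 genes at 1 CPM or more in either library, the median log2 ratio of CPM in KO over WT was -0.07, and the ratio went with GC content, with genes split by GC into 10 equal bins: the median was 0.30 in the bin of lowest GC and -0.87 in that of highest GC. A correction for GC content and exon length, described under the processing, gives a second reading of each ratio, printed as a corrected value. Hepatocyte markers (Alb, Cps1 and others) summed to 97470 CPM in KO and 61762 CPM in WT, with 6 of 7 higher in KO. Kupffer cell and macrophage markers summed to 541 CPM in KO and 1345 CPM in WT, with 9 of 9 lower, and T and NK cell markers to 29.7 CPM in KO and 68.4 CPM in WT, with 7 of 7 lower. In bulk RNA, fewer cells of a type and less RNA per cell cannot be told apart, and the part of this difference in the chaperone ratios was not tested.

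Promoters are shown for the pair of genes with the lowest ratios of KO over WT, the stress-inducible HSP70 genes Hspa1a and Hspa1b, and for the gene with the highest ratio, the J protein gene Dnajb4, which has a pair of annotated starts. Each window runs from 250 bases before the transcription start to 50 after it, 5′ to 3′ on the gene's strand, from RefSeq on GRCm38.p6. Capitals mark a pair of inverted heat shock element units, GAANNTTC or TTCNNGAA, which read the same on both strands.
Hspa1a, chr17:34972107-34972406, minus strand: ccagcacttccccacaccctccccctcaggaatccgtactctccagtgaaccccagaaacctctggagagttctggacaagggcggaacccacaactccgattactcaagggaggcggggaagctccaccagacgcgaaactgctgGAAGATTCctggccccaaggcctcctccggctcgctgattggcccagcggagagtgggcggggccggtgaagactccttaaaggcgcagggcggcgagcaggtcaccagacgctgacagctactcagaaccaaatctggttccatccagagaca
Hspa1b, chr17:34959189-34959488, minus strand: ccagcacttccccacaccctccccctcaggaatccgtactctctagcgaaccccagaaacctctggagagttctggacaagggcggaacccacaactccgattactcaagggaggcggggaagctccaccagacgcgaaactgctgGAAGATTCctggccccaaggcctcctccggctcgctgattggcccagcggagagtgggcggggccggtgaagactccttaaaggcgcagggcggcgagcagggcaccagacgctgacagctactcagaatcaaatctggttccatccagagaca
Dnajb4, upstream start, chr3:152210034-152210333, minus strand: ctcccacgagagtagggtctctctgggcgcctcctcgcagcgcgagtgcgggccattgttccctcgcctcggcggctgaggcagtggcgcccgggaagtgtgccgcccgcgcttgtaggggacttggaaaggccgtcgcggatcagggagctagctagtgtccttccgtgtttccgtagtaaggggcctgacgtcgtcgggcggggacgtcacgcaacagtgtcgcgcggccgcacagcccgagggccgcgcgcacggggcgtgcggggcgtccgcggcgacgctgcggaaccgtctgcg
Dnajb4, downstream start, chr3:152193796-152194095, minus strand: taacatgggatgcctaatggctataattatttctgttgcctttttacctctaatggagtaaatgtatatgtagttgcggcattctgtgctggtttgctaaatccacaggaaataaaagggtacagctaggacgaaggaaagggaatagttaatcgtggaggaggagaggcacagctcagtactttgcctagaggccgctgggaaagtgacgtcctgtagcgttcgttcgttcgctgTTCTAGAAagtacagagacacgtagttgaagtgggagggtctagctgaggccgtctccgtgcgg

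The Hspa1a and Hspa1b windows were identical at 296 of 300 positions, and in both the match began 104 bases before the start. At Dnajb4 the downstream window held 1 match, 14 bases before the start, and the upstream window held none. RefSeq promoters were found for 30 of the 36 chaperone genes, and Cryab, Hsf1, Hsp90aa1, Hsp90ab1, Hspa8 and Hspa9 had none in the table. A match of 2 units was present in 17 of 41 promoter windows of these genes, or 41.5%, against 15.1% of all 32851 promoter windows of the same length. The stricter match of 3 alternating units, which always contains the shorter one, was present in 7 of 41 windows, or 17.1%, against 0.603% of all windows. These strict matches lay at Hspd1 and Hspe1, which share a promoter region and so the same matches, and at Hsph1, Dnajb6 and Chordc1. Hsph1 and Dnajb6 each have overlapping windows that hold the same match, so the windows are not separate sites. By gene, 2 units were matched in 15 of 30 and 3 units in 5 of 30, against 4587 and 179 of all 27025 genes with a promoter. None of these 5 genes with a strict match passed 1.5-fold between the libraries in either direction. Most genes did not: 31 of the 35 chaperone genes at 1 CPM or more and 62.7% of all genes at that level lay within 1.5-fold.

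In both libraries the constitutive cytosolic chaperones were the most abundant members per length. Hsp90ab1, the constitutive HSP90, was at 431 FPKM in KO and 465 FPKM in WT, where FPKM is CPM per kilobase of exon. Hspa8, the constitutive HSP70 that also uncoats clathrin vesicles, was at 373 FPKM in KO and 313 FPKM in WT, so Hsp90ab1 stood first and Hspa8 second in each library. The next levels belonged to the mitochondrial pair Hspd1 and Hspe1, the small heat shock gene Hspb1 and the mitochondrial HSP70 Hspa9, from 109 to 160 FPKM in KO and from 82.0 to 221 FPKM in WT. In WT Hspb1 came directly after Hspa8, and in KO, at 159.2 FPKM, it was level with Hspd1 at 159.8 FPKM. At the other end Hsf2 was under 1 FPKM in both, and Hspa1l, an HSP70 gene expressed in male germ cells, had 1 read in KO and 0 in WT, both under the floor, so no ratio is given for it. Together the 36 genes took 0.615% of reads in KO and 0.578% in WT.

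**Figure D1:**
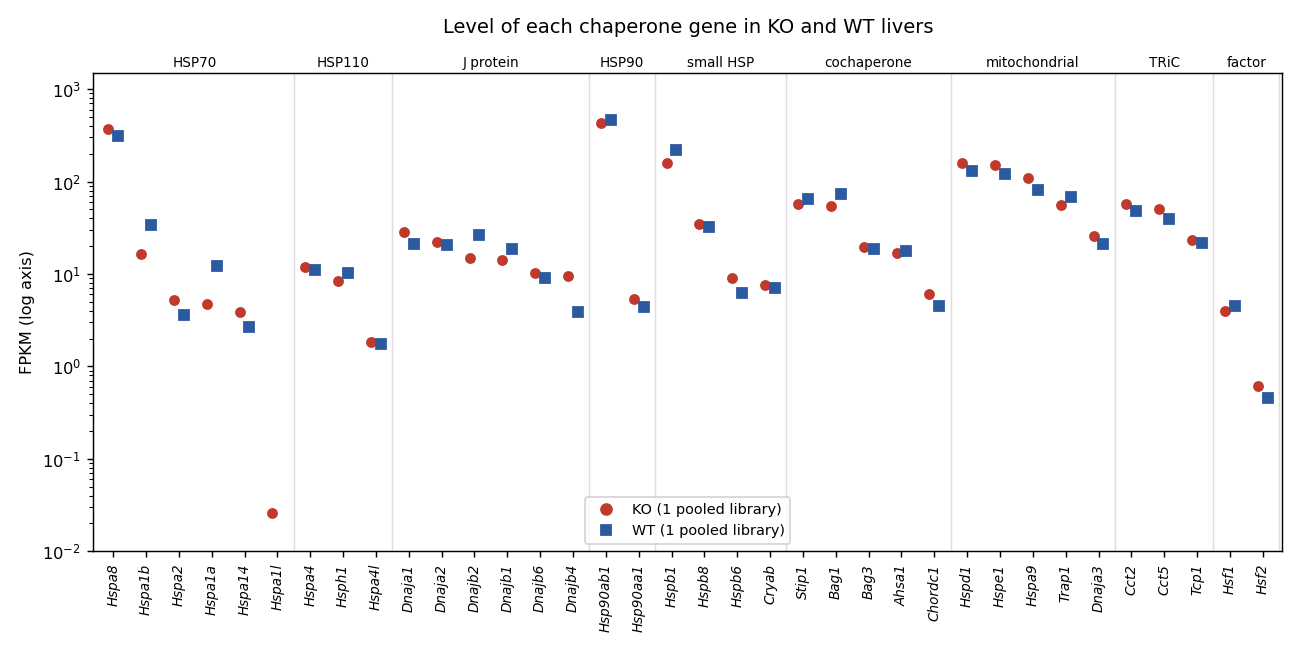
Level of each of the 36 chaperone genes in FPKM on a log axis, grouped by role, with the KO library as a red circle left of the WT library as a blue square (1 pooled library each, so no error bars; Hspa1l had no read in WT). Most pairs of symbols nearly coincide, whereas Hspa1a and Hspa1b sit lower in KO and Dnajb4 sits higher in KO.

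Of the 35 chaperone genes at 1 CPM or more, 31 lay within 1.5-fold between the libraries, or 88.6%, against 62.7% of all genes tested. Of the same 35 genes, 1 (Dnajb4) was at least 1.5-fold higher in KO, or 2.86%, against 12.5% of all genes tested. At least 1.5-fold lower in KO were 3 of 35, or 8.57%, against 24.9% of all genes, and these were Hspa1a, Hspa1b and Dnajb2. At 2-fold the counts were 1 gene higher, Dnajb4, against 4.63% of all genes, and 2 genes lower, Hspa1a and Hspa1b, against 12.4%. The median log2 ratio over the 35 genes was 0.12, with 23 above 0 and 12 below, against a median of -0.07 over all genes tested, of which 45.9% were above 0. All 35 also reached 5 CPM, and at that level 8.43% of all genes were 1.5-fold higher and 24.5% lower. After the correction the median of the 35 genes was 0.09, Dnajb4 alone was past 1.5-fold on the higher side, and none was past it on the lower side, against 13.1% and 16.8% of all genes.

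The HSP70 genes held the lowest ratios. Hspa1a (GRCm38 chromosome 17, 34969190 to 34972156, minus strand), a stress-inducible cytosolic HSP70, had 219 reads in KO and 717 in WT, or 13.9 CPM in KO and 36.1 CPM in WT. It was 2.60-fold lower in KO (2.23 to 3.03), a log2 ratio of -1.38. Hspa1b (chromosome 17, 34956436 to 34959238, minus strand), its near-identical neighbour, had 722 reads in KO and 1869 in WT, or 45.8 CPM in KO and 94.1 CPM in WT. The ratio for Hspa1b was 2.05-fold lower (1.88 to 2.24), and with both genes summed the inducible HSP70 was at 59.7 CPM in KO and 130 CPM in WT, 2.18-fold lower (2.02 to 2.35). Of the 75-base words in the longest transcript, 61.7% of Hspa1a and 55.8% of Hspa1b also occur in another gene, mostly in the other copy, so the division of reads between them is uncertain and their sum is the safer value. Both are rich in GC, at 58.9% and 58.1%, and the 338 genes in their bin of GC content and length had a median log2 ratio of -0.92. Corrected for it, Hspa1a was at -0.45, or 1.37-fold lower, and Hspa1b at -0.11, so neither stayed past 1.5-fold.

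The other HSP70 genes with enough reads had ratios above 1. Hspa8 had 1604 CPM in KO and 1346 CPM in WT, a ratio of 1.19 (1.17 to 1.21), and 41.3% of its words occur in other genes. Hspa14, which encodes an HSP70 bound to ribosomes, was at 15.9 CPM in KO and 10.8 CPM in WT, a ratio of 1.47 (1.22 to 1.77). Hspa2, an HSP70 best known from male germ cells, was at 13.7 CPM in KO and 9.56 CPM in WT, a ratio of 1.43 (1.17 to 1.75). These 3 genes had corrected log2 ratios of 0.10, 0.44 and 0.50, all above 0. Among the HSP110 exchange factors, Hsph1, the stress-inducible one, was at 61.6 CPM in KO and 74.4 CPM in WT, 1.21-fold lower (1.11 to 1.31), with a corrected log2 ratio of -0.31. Its relatives Hspa4 and Hspa4l had ratios of 1.08 (0.997 to 1.18) and 1.07 (0.928 to 1.24), whose intervals hold 1. After the correction Hspa4 was at 0.10 and Hspa4l at -0.16 on the log2 scale.

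J proteins gave both the highest ratio of the set and one of its lowest. Dnajb4 (chromosome 3, 152178511 to 152210302, minus strand), a cytosolic J protein close to Dnajb1, had 1316 reads in KO and 682 in WT, or 83.6 CPM in KO and 34.3 CPM in WT. It was 2.43-fold higher in KO (2.22 to 2.67), a log2 ratio of 1.28, and kept 1.08 after the correction, which made it the only member past 2-fold by both readings. None of its words occur in another gene. Dnajb2 (chromosome 1, 75236406 to 75245692, plus strand), a J protein that hands clients to the proteasome, was at 62.8 CPM in KO and 113 CPM in WT, 1.80-fold lower (1.66 to 1.94), but at a GC content of 57.3% its log2 ratio of -0.84 became -0.34 after the correction. Dnajb1, the J protein that serves the inducible HSP70 under stress, was at 45.6 CPM in KO and 59.5 CPM in WT, 1.30-fold lower (1.19 to 1.43), and stayed below 0 after the correction, at -0.27. Dnaja1, a farnesylated J protein, was at 247 CPM in KO and 183 CPM in WT, a ratio of 1.35 (1.29 to 1.41), and its log2 ratio of 0.43 became 0.17 after the correction. Dnaja2 and Dnajb6, which restrains polyglutamine aggregation, had ratios of 1.08 (0.993 to 1.17) and 1.11 (1.02 to 1.21), with corrected log2 values of -0.14 for Dnaja2 and 0.36 for Dnajb6.

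Both HSP90 genes lay within 1.5-fold. Hsp90ab1 had 1293 CPM in KO and 1394 CPM in WT, 1.08-fold lower (1.06 to 1.10), or -0.07 on the log2 scale after the correction. Hsp90aa1, the stress-inducible partner, was at 21.3 CPM in KO and 17.1 CPM in WT, a ratio of 1.25 (1.07 to 1.45), or 0.07 on the log2 scale after the correction. Of its words 53.1% occur in processed copies, and how reads with several matches were counted is not given in the sources used here. Among HSP90 cochaperones, Stip1, which links HSP70 to HSP90, was at 122 CPM in KO and 136 CPM in WT, 1.12-fold lower (1.05 to 1.19), and at -0.20 after the correction. Ahsa1, an activator of the HSP90 ATPase, had a ratio of 0.962 (0.890 to 1.04), an interval that holds 1, and was at -0.17 after the correction. Chordc1, an HSP90-binding protein, was at 45.01 CPM in KO and 34.2 CPM in WT, a ratio of 1.32 (1.18 to 1.47), and its low GC content of 35.7% goes with a corrected log2 ratio of 0.13.

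The pair of BAG genes, whose products release clients from HSP70, differed from each other. Bag1, which couples HSP70 to the proteasome, was at 73.5 CPM in KO and 99.5 CPM in WT, 1.35-fold lower (1.26 to 1.46), with -0.46 after the correction, the lowest corrected value of the set. Bag3, stress-inducible and tied to autophagy of aggregates together with Hspb8, was at 49.8 CPM in KO and 47.6 CPM in WT, a ratio of 1.05 (0.952 to 1.15), and at 0.30 after the correction. The small heat shock proteins, which hold unfolded proteins without ATP, had ratios above 1 in 3 of 4 genes, against 45.9% of all genes tested. Hspb1 was the exception, at 164 CPM in KO and 228 CPM in WT, 1.39-fold lower (1.32 to 1.46). It has the highest GC content of the set, 61.7%, and its corrected log2 ratio was 0.02, on the other side of 0. Hspb1 held 4528 of the 6257 reads of these 4 genes in WT, and their summed ratio was 0.838 (0.805 to 0.871). Hspb6, known from muscle, was at 20.8 CPM in KO and 14.3 CPM in WT, a ratio of 1.45 (1.23 to 1.70), and stayed at 0.51 after the correction. Its muscle relatives Hspb8 and Cryab had ratios of 1.09 (1.001 to 1.18) and 1.08 (0.880 to 1.33), and both were at 0.09 after the correction. Striated muscle markers summed to 0.317 CPM in KO and 0.604 CPM in WT, with Myl1 at 0 in both, whereas smooth muscle markers summed to 80.5 CPM in KO and 75.2 CPM in WT, with 2 of 5 higher in KO and 3 lower.

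Of the mitochondrial chaperones none passed 1.5-fold. Their log2 ratios were above 0 in 4 of 5 genes, with a median of 0.30 before the correction and 0.11 after it, where 45.9% of all genes were above 0 before it and 50.4% after it. Hspa9, the HSP70 that pulls proteins into the matrix, was at 470 CPM in KO and 353 CPM in WT, a ratio of 1.33 (1.29 to 1.37), with a corrected log2 value of 0.26. Hspd1 and Hspe1, the matrix folding chamber and its lid, had ratios of 1.23 (1.19 to 1.27) and 1.27 (1.21 to 1.33), which became 1.08 and 1.06 after the correction. Dnaja3, the matrix J protein, was at 100.3 CPM in KO and 81.9 CPM in WT, a ratio of 1.22 (1.14 to 1.31), with a corrected log2 value of 0.33. Trap1, the mitochondrial HSP90, went the other way at 145 CPM in KO and 176 CPM in WT, 1.22-fold lower (1.16 to 1.29), and was at -0.32 after the correction. The TRiC subunits Cct2, Cct5 and Tcp1, parts of the ring that folds actin and tubulin, had ratios of 1.19 (1.13 to 1.26), 1.26 (1.19 to 1.34) and 1.08 (1.01 to 1.15). After the correction their log2 ratios were 0.07 for Cct2, 0.37 for Cct5 and -0.20 for Tcp1. Hsf1, the main heat shock factor, was at 28.1 CPM in KO and 32.1 CPM in WT, a ratio of 0.877 (0.775 to 0.992) that turned to a log2 ratio of 0.27 after the correction. Hsf2 had 93 reads in KO and 87 in WT, a ratio of 1.35 (0.996 to 1.83) whose interval holds 1, and was at 0.17 after the correction.

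The set allows inducible chaperones to be compared with constitutive ones. The 8 genes taken as inducible (Hspa1a, Hspa1b, Hsph1, Hspb1, Cryab, Dnajb1, Hsp90aa1 and Bag3) had a median log2 ratio of -0.33, with 5 below 0 and 3 above. The 14 constitutive genes had a median of 0.13, with 10 above 0, so that the inducible minus the constitutive median was -0.46. Over all genes tested 54.1% were below 0 and 45.9% above. With the intermediate genes counted as inducible, the difference was -0.049. Summed over genes, the inducible class was at 413 CPM in KO and 567 CPM in WT, 1.37-fold lower (1.33 to 1.41), and the constitutive class had a summed ratio of 1.07 (1.05 to 1.08). The GC-rich Hspb1, Hspa1b and Hspa1a gave 228, 94.1 and 36.1 of the 567 CPM in WT. Their corrected log2 ratios were 0.02, -0.11 and -0.45, and the sums were not corrected. The 8 intermediate genes, constitutive but raised further by heat, had a median of 0.32, or 0.10 after the correction. The classes also differ in GC content, with a median of 55.3% for inducible and 48.9% for constitutive genes, and after the correction their medians were -0.05 and 0.08, a difference of -0.13. After it 4 of the 8 inducible and 8 of the 14 constitutive genes were above 0, against 50.4% of all genes. Over the 35 genes Spearman's rho between log2 ratio and GC content was -0.56 before the correction and -0.17 after it, a description across genes that share the same 2 libraries. With Hspa1a and Hspa1b both left out, a choice made after seeing the data, the difference between classes was -0.24, or -0.038 with the correction as well.

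**Figure D2:**
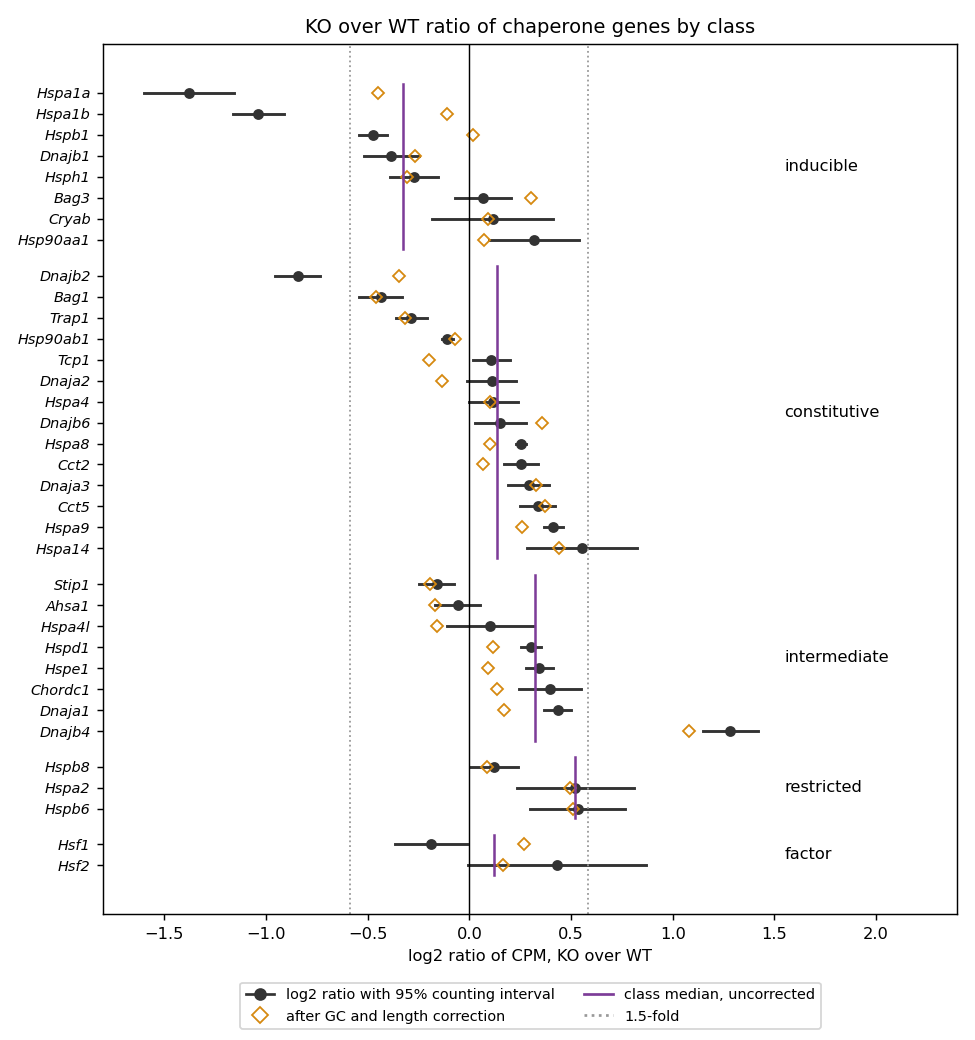
Log2 ratio of CPM in KO over WT for the 35 chaperone genes at 1 CPM or more, by class. Filled circles with bars are ratios with 95% counting intervals, open diamonds are values after the GC and length correction, purple lines are class medians and dotted lines mark 1.5-fold. Hspa1a and Hspa1b at -1.38 and -1.04 move to -0.45 and -0.11 with the correction, while Dnajb4 at 1.28 moves only to 1.08.

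**Figure D3:**
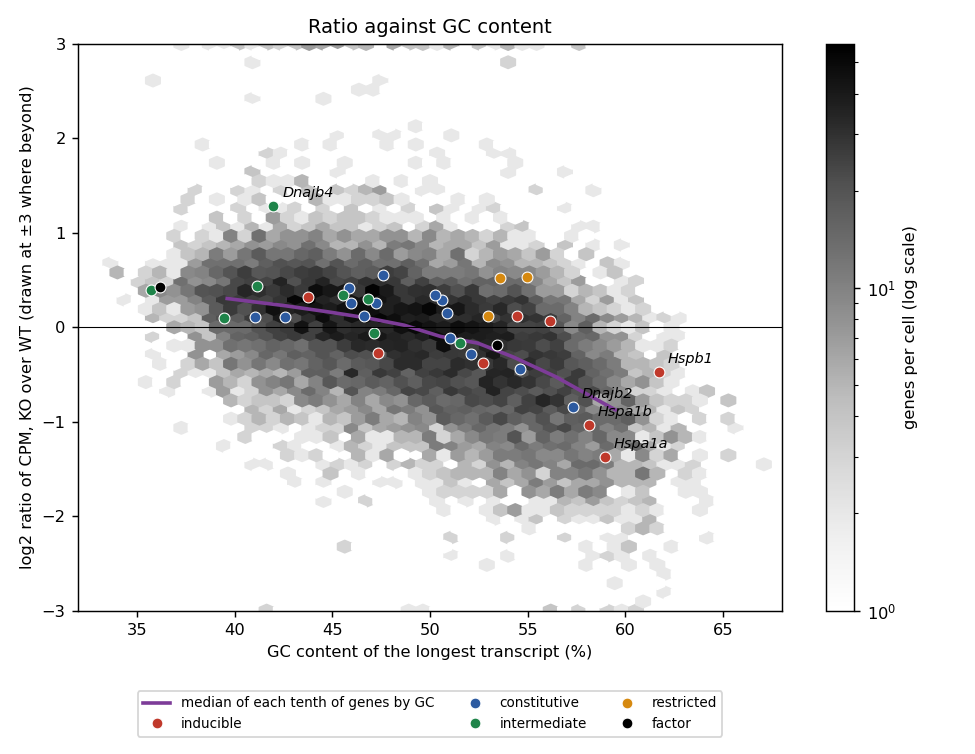
Log2 ratio of CPM in KO over WT against GC content of the longest transcript. Grey cells count all genes at 1 CPM or more on a log scale, with values beyond 3 drawn at 3, the purple line joins the medians of 10 bins of genes by GC, and coloured points are chaperone genes by class. Hspa1a, Hspa1b and Dnajb2 lie below the falling line at high GC, Hspa1a the farthest of them, and Dnajb4 lies far above it.

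Shares within a pair of related genes do not depend on how the libraries are scaled. Of the reads on Hspa1a, Hspa1b and Hspa8, the inducible genes held 3.59% in KO (3.37 to 3.82) and 8.82% in WT (8.50 to 9.15). Hsph1 held 48.1% of its reads with Hspa4 in KO (45.9 to 50.3) and 54.8% in WT (52.9 to 56.7). Dnajb1 held 42.6% of its reads with Dnajb6 in KO (40.2 to 45.01) and 51.8% in WT (49.8 to 53.9). Dnajb6 was chosen as the constitutive partner, while Dnajb4 was classed as intermediate, and 39.5% of the words of Dnajb6 occur in other genes. In these 3 families the inducible share was lower in KO. In the other pairs it was higher: Hsp90aa1 held 1.62% of its reads with Hsp90ab1 in KO (1.45 to 1.80) and 1.21% in WT (1.08 to 1.34), and Bag3 held 40.4% of its reads with Bag1 in KO (38.2 to 42.6) and 32.3% in WT (30.6 to 34.1). The correction left the log2 difference of inducible minus constitutive nearly as it was for HSP110, at -0.39 before and -0.41 after, and for Dnajb1 over Dnajb6, at -0.54 and -0.62, and that of the BAG pair was 0.50 before and 0.77 after. The HSP70 difference was -1.38 before and -0.31 after, and the HSP90 difference 0.43 before and 0.14 after. Across the 5 families the inducible partner thus differed in both directions. The intervals of these shares hold counting error alone, and shares of other gene pairs were not computed. Such intervals are narrow at this depth, and how many of all genes tested have a CPM ratio whose interval leaves out 1 was not counted.

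**Figure D4:**
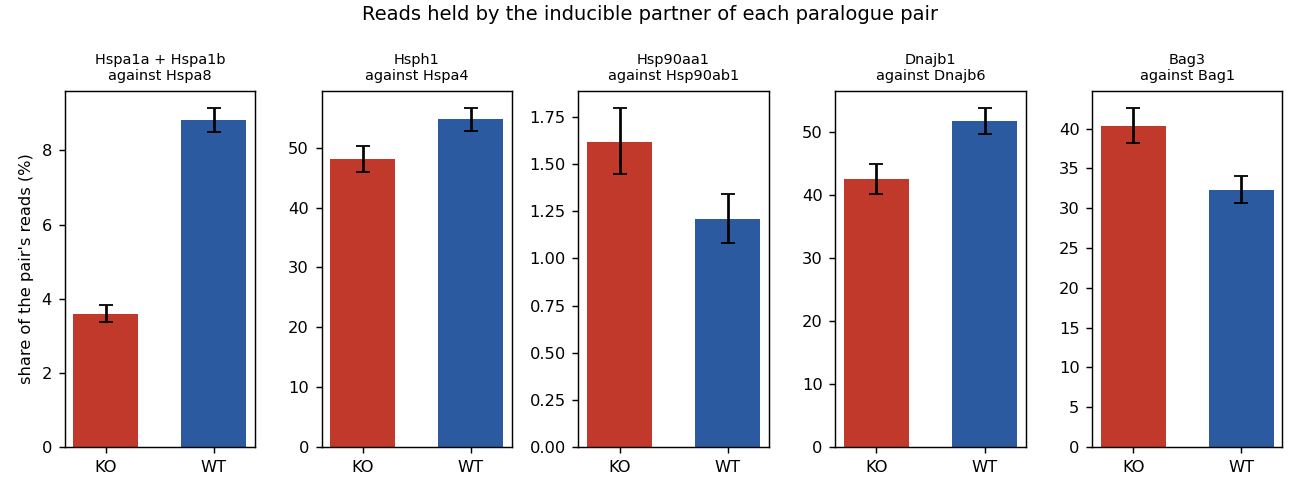
Share of the reads of a paralogue pair that fell on its inducible partner, in percent, with the KO library (red) left of the WT library (blue) and exact 95% binomial intervals. The inducible share is lower in KO for HSP70, HSP110 and Dnajb1, and higher in KO for HSP90 and Bag3; each panel has its own axis from 0.

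Another 62 genes of the chaperone network, chosen by role, had 59 at 1 CPM or more, with a median log2 ratio of 0.01. Of these, 2 were at least 1.5-fold higher in KO, against 12.5% of all genes, and 9 at least 1.5-fold lower, against 24.9%. The remaining TRiC subunits had 4 of 5 above 0, against 45.9% of all genes, and a median of 0.40, or 0.22 after the correction. Cct8 was at 154 CPM in KO and 111 CPM in WT, with a corrected log2 value of 0.22, and Cct7 was at -0.18 after the correction. Mitochondrial chaperones and proteases had 7 of 10 above 0 and a median of 0.30, or 0.23 after the correction. Lonp1, a matrix protease among them, was 1.73-fold lower (1.65 to 1.81), but 1.22-fold lower after the correction. Highest were Bag2, an inhibitor of client ubiquitination, at 4.25 CPM in KO and 1.91 CPM in WT, a ratio of 2.22 (1.47 to 3.40), Hspb11 with 38 reads in KO and 31 in WT, and Bcs1l, a respiratory complex assembly factor, with a ratio of 1.45 (1.20 to 1.75). Their corrected log2 values were 1.19 for Bag2, 0.37 for Hspb11 and 0.50 for Bcs1l. Lowest were Dnajb5, Serpinh1 and Unc45a. Dnajb5, a J protein gene, was at 7.68 CPM in KO and 17.2 CPM in WT, 2.24-fold lower (1.82 to 2.78), and at -0.64 after the correction. Serpinh1, the collagen chaperone of the endoplasmic reticulum and a heat shock gene, was at 42.3 CPM in KO and 94.7 CPM in WT, 2.24-fold lower (2.05 to 2.45), and kept -0.93 after the correction. Beside it, stellate cell and fibroblast markers summed to 770 CPM in KO and 812 CPM in WT, with 4 of 6 lower in KO, and their part in the Serpinh1 ratio was not tested. Unc45a, a cochaperone of HSP90 for myosin, was 1.87-fold lower (1.65 to 2.13) but at 0.25 after the correction. After it 3 of the 59 genes were past 1.5-fold on each side, against 13.1% of all genes higher and 16.8% lower.

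**Figure D5:**
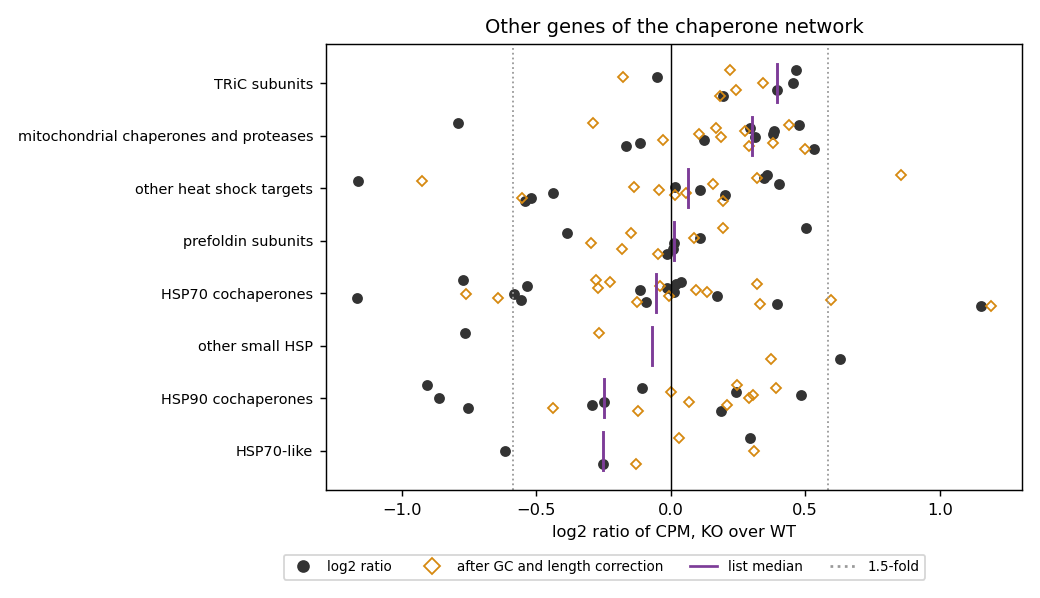
Log2 ratio of CPM in KO over WT for 59 other genes of the chaperone network by list. Filled circles are ratios, open diamonds are values after the GC and length correction, purple lines are list medians before it and dotted lines mark 1.5-fold; Bag2 is farthest right, and Dnajb5 and Serpinh1 farthest left.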

How the data were processed

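Each deposited table gives 1 value per gene for 1 pooled library. The files call these values FPKM, but they are whole-number read counts, per the values themselves, deposited by the authors without normalization. The build GRCm38 and the tools HTSeq 0.6.1 and TopHat2 are named in the submitters' processing notes. Which annotation release was counted, whether strand was used and how reads with several matches were treated is not given in the sources used here. Of 52845 entries, 209 carried a label with no annotated gene, held 0.496% of counts in KO and 0.652% in WT, and were left out of totals. GENCODE M21 (GRCm38) gave symbols, exon union lengths and the GC content of the longest transcript for 52489 of the 52636 Ensembl genes, and 147 had no entry.

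CPM was computed over all Ensembl genes, and FPKM from CPM and exon union length, which may differ from the authors' annotation. Ratios are CPM in KO over CPM in WT with no pseudocount, with exact Clopper-Pearson intervals of the split of reads; reads are not independent molecules. With 1 library per group there is no test, and a ratio compares these pools. Genes were counted at 1.5-fold or 2-fold among those at 1 CPM or more in either library. The correction subtracts from each gene the median log2 ratio of genes with 100 reads or more over both libraries in the same of 10 GC by 4 length bins. A true difference between the livers that follows GC or length is removed with it. Members, classes and lists were chosen with earlier results of these data known; all members are named, and of the wider list the 3 highest, the 3 lowest and those past 2-fold, with Cct7, Cct8 and Lonp1 named after their values were seen. Word sharing used 75-base words of GENCODE transcripts. The steps were tested on simulated data. TMM factors, an alternative scaling, came from edgeR 4.0.16 (R 4.3.3), and the rest was computed in Python 3.11.15 with pandas 2.3.3, numpy 2.4.6 and scipy 1.17.1.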

Additional observations from a re-analysis of the deposited data

How the results depend on the processing

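No paired analysis was possible because each group is 1 pooled library. The difference between inducible and constitutive medians was -0.46 and stayed negative in every alternative run that could change it. Other scalings of the libraries shift all log2 ratios by the same amount, so they could not change it. Other CPM filters kept the same genes in both classes. It was -0.13 with the GC and length correction, -0.049 with the intermediate genes counted as inducible, -0.24 without Hspa1a and Hspa1b (an alternative added after seeing the data) and -0.038 without them and with the correction. Leaving out each inducible gene in turn gave -0.52 to -0.41. The median of the remaining inducible genes was then that of Dnajb1 or Hsph1, so this range could not be wider. With the correction no chaperone gene was past 1.5-fold on the lower side, against 3 without it, and 3 of the wider list were, against 9. A total without the most abundant genes, 60 of either library, raised all log2 ratios by 0.11, so that 4 chaperone genes and 5 of the wider list were past 1.5-fold on the higher side, against 1 and 2, while the share of all genes there was 16.4%, against 12.5%; relative to that shift the ratios were those of CPM. On that side the wider list held 1 gene with a pseudocount of 1 CPM and 0 with 1 FPKM or at 5 CPM or more. The correction moved 20 of 35 gene ratios beyond their counting interval and turned the sign of 5, Hsf1, Hspa4l, Hspb1, Dnaja2 and Tcp1. Counting error is wide for Hsf2, Bag2 and Hspb11, which had 31 to 93 reads a library.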

Other observations

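Copies of chaperone genes had reads of their own, given here as values. Beside the genes named above for this, 47.3% of the 75-base words of Hspb1, 33.7% of Hspd1 and 26.2% of Dnaja1 also occur in other genes. Hspd1-ps3, a processed copy of Hspd1, had 323 reads in KO and 265 in WT, and Gm15542, a processed copy of Dnaja1, had 201 reads in KO and 238 in WT. Gm8355, a copy of Hspa8, had 131 reads in KO and 162 in WT, a ratio of 1.02. Gm12346, which shares 1442 of the 75-base words of Hsp90aa1, had 13 reads in KO and 10 in WT. Reads that match a gene and its copy equally and were not counted cannot be seen in these tables.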
